A study of Mus musculus with 4 samples.

Results

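The tissue-type splicing regulators are RNA-binding proteins whose amounts differ between tissues and that decide which alternative exons a cell type keeps. The 10 members followed here are Mbnl1, Mbnl2, Mbnl3, Celf1, Celf2, Rbfox1, Rbfox2, Ptbp1, Rbm24 and Qk, of 12750 genes that could be named in the 4 libraries. They were chosen by gene name. Each was found by matching consecutive exon and intron lengths of the assembled transcripts to the mouse annotation, and all 10 matched. Cells of the mouse skeletal muscle line C2C12, whose strain is labelled C57BL/6, were sampled at 4 times: a growth library (labelled -24 hours) from exponentially growing myoblasts in medium with 20% fetal bovine serum, and libraries at 60, 120 and 168 h after confluent cells were moved to low-serum medium, in which this line differentiates. No genetic change or drug is given for any group, and each time is 1 library of polyA RNA, so no difference below has a replicate check and no p-value is given.

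MBNL and CELF proteins bind many of the same transcripts and often act in opposite directions, and loss of MBNL activity causes the missplicing of myotonic dystrophy. RBFOX proteins bind a GCATG element and are known for setting muscle and brain exons. PTBP1 is a repressor of tissue-specific exons in dividing and non-muscle cells. RBM24 is a muscle-restricted activator, and the QKI proteins encoded by Qk bind ACUAA elements and act in muscle, vascular and glial cells.

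In the files' own coordinates, whose build is unknown here and which must not be read against GRCm38, the assembled transcripts of Mbnl1 spanned chr3:60305065-60431983 and those of Mbnl2 chr14:120674893-120829375, both on the plus strand, and those of Mbnl3 chrX:48473995-48558997 on the minus strand. Celf1 spanned chr2:90780736-90859726 (plus) and Celf2 chr2:6462478-7002503 (minus). Rbfox1 spanned chr16:7039938-7412490 (plus) and Rbfox2 chr15:76909418-77137563 (minus). Ptbp1 lay at chr10:79317334-79327464 (plus), Rbm24 at chr13:46513741-46526468 (plus) and Qk at chr17:10399634-10511893 (minus).

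The files list assembled transcripts with a level labelled RPKM and a confidence interval. The level is read here as FPKM (fragments scaled to transcript length and to the library's mapped fragments). The level of a gene is the sum over its transcripts, and ± gives the distance to the deposited limit, which covers counting error only. A second level was taken as the median over the introns that no other assembled intron of that gene overlaps. Unspliced pieces, and pieces that hold none of these introns, enter the sum but not this median. Broken spliced transcripts that hold such introns still enter it. A gene was called higher or lower when log2(FPKM + 1) differed by at least 1 (2-fold), with a minimum of 1 FPKM in the higher library and no overlap of intervals. The files allow 28513976 fragments to be inferred for growth, 48228887 for 60 h, 24488681 for 120 h and 43845262 for 168 h. Members rested on 0 to 21481 of them. The 8 skeletal muscle marker genes were assembled in every library. They summed to 711, 10796, 16020 and 15227 FPKM at the 4 times in order, which fits the label. Acta1 alone made 7931 FPKM of the 120 h sum. At 168 h against growth 6 of the 8 were called higher (15.6% of all genes). Myod1 was called lower (18.6% of all genes), and Myf5 was not called. The 6 dividing-cell markers summed to 511, 135, 76.2 and 42.4 FPKM. Smooth muscle markers summed to 2578, 1807, 969 and 503 FPKM with 5 or 6 of 6 assembled, adipocyte markers to 24.4, 6.01, 27.4 and 44.8 FPKM with Adipoq, Plin1 and Cebpa at 0, and macrophage and endothelial markers to at most 4.83 FPKM. In such bulk RNA, fewer cells of a type and less RNA per cell cannot be told apart.

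At 60 h against growth, 2 of the 10 members were called higher (Rbfox1 and Rbm24), where 11% of 12449 genes were, and 3 were called lower (Mbnl1, Mbnl3 and Ptbp1), where 15.5% of genes were. At 168 h against growth, Rbfox1 and Rbm24 were again the 2 called higher, against 15.6% of 12444 genes, and Mbnl1, Mbnl2, Mbnl3 and Ptbp1 were the 4 called lower, against 18.6%. The steps between the differentiated libraries moved few members: at 120 h against 60 h only Mbnl3 was called higher (12.4% of genes) and none lower (3.8%), and at 168 h against 120 h only Mbnl3 was called lower (10.1%) and none higher (4.09%). By introns without alternatives the calls at 60 h against growth were Rbfox1 and Rbm24 higher (14.1% of genes) and Mbnl3 and Ptbp1 lower (12.4%), no member was called at 120 h against 60 h (4.3% of genes higher, 8.8% lower) or at 168 h against 120 h (7.69% higher, 5.63% lower), and the calls at 168 h against growth were as before (18.2% higher, 20.6% lower). The members' median log2 ratio was 0.18 at 60 h against growth, beside -0.19 for all genes, and -0.21 at 168 h against growth, beside -0.11. Through the introns the members' median at 60 h against growth had the other sign, -0.14, beside -0.09 for all genes.

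**Figure D1:**
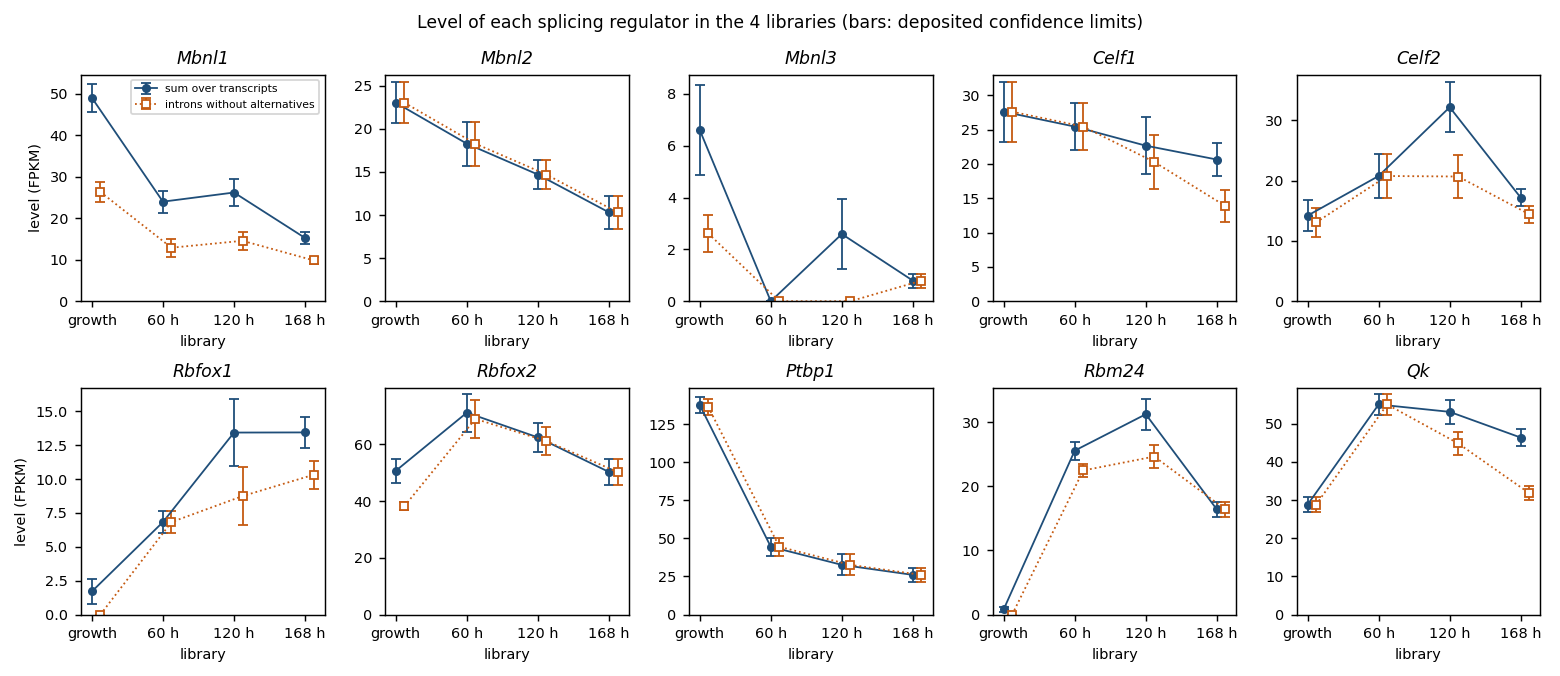
Level of each member (y axis, FPKM) in the growth, 60 h, 120 h and 168 h libraries (x axis, not to scale in time). Filled circles are sums over transcripts, open squares the median over introns without alternatives, and bars the deposited limits; Ptbp1 is highest in growth at 137 FPKM, and Rbm24 and Rbfox1 are near 0 there.

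**Figure D2:**
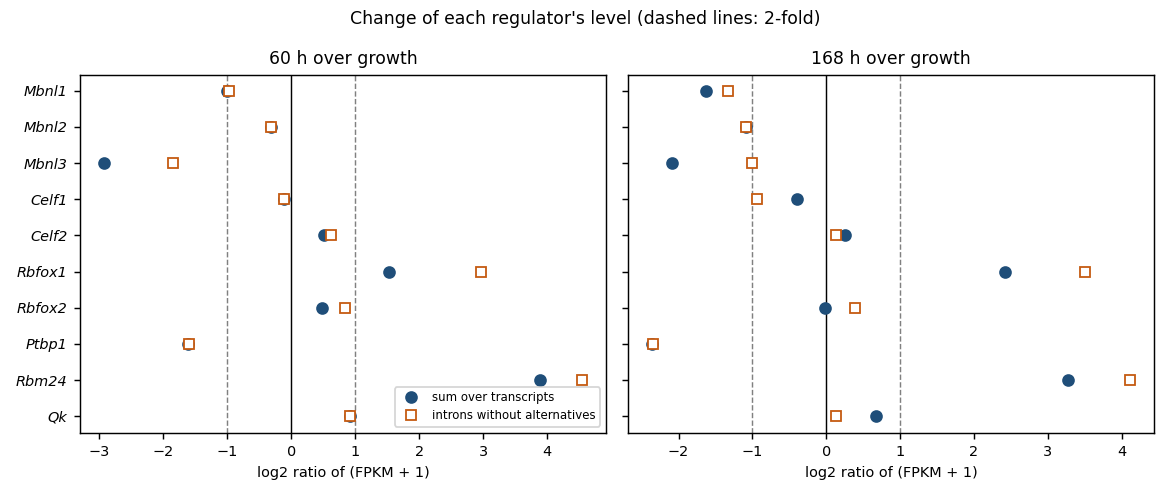
The log2 ratio of (FPKM + 1) of the 10 members (x axis), 60 h over growth on the left and 168 h over growth on the right. Rbm24 lies farthest to the right in both panels, and dashed lines mark a 2-fold change.

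Ptbp1, the repressor, fell most in absolute level. It measured 137 ± 5.22 FPKM in growth, 44.5 ± 5.76 at 60 h, 32.6 ± 6.87 at 120 h and 26.0 ± 4.64 at 168 h. Growth stood far above the other 3 libraries, and the intervals of neighbouring later times overlapped. The level was 3.09-fold lower at 60 h than in growth and 5.29-fold lower at 168 h than in growth. It was the highest of the 10 members in growth and ranked 3 at each later time, where Rbfox2 led; at 120 and 168 h its interval overlapped that of the next member. Its introns without alternatives gave 136, 44.5, 32.6 and 26.0 FPKM. The dividing-cell markers fell at the same times, with values above, and their part in the Ptbp1 result was not tested. In the annotation Ptbp1 overlaps Plppr3, Gm17134 and E130317F20Rik on the other strand, and 18.3% of its 50-base words also occur in transcripts of other genes. The library protocol does not mark strand, so reads of these genes cannot be told apart there.

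Rbm24 went the other way. Growth held only a pair of unspliced pieces, of 1014 and 333 bases, which came to 0.80 ± 0.447 FPKM from 17 fragments. Spliced transcripts were assembled at each later time. The gene's sum was 25.5 ± 1.38 FPKM at 60 h, 31.2 ± 2.43 at 120 h and 16.4 ± 1.22 at 168 h. The 120 h sum included an unspliced piece of 440 bases at 6.59 ± 1.56 FPKM. Introns without alternatives gave 22.5 ± 1.01, 24.6 ± 1.87 and 16.4 ± 1.22 FPKM at 60, 120 and 168 h. By this measure 60 h and 120 h overlapped. All 3 differentiated libraries were far above growth without overlap. The ratio of levels was 31.9 at 60 h over growth and 20.5 at 168 h over growth, and the growth value rests on few fragments. The decline at 168 h against 120 h was 1.90-fold by the sum, with intervals apart, and missed the 2-fold rule. Its log2 ratio was -0.56 by introns without alternatives and -0.89 by the sum. The RefSeq promoter window of Rbm24 at chr13:46418050-46418349 (GRCm38.p6, plus strand, 250 bases before to 50 after the gene's start) is shown because this gene changed most, with matches to the E-box CANNTG, the element bound by MyoD-family factors, in capitals:
Rbm24 promoter: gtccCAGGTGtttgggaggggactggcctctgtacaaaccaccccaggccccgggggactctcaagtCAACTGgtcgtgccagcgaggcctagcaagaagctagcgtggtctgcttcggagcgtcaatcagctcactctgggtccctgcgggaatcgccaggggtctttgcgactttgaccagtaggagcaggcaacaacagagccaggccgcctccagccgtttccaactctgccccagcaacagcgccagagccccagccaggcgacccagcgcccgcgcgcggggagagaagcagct
The pattern reads the same on both strands. It occurred 2 times, and 39.6% of 32851 promoter windows of this length held it at least as often; CAGCTG occurred 0 times against a share of 16.3% of windows. A match is only a match of letters and was not tied to binding here.

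Rbfox1, the muscle and brain member of its family, rose to levels still below those of Rbfox2. It measured 1.70 ± 0.918 FPKM in growth from 15 fragments, 6.83 ± 0.816 at 60 h, 13.4 ± 2.51 at 120 h and 13.5 ± 1.16 at 168 h. Growth lay below all later libraries, and 120 h and 168 h overlapped. The sums at 120 and 168 h included unspliced pieces, which 60 h lacked. Introns without alternatives gave 6.83 ± 0.816, 8.75 ± 2.14 and 10.3 ± 1.03 FPKM at 60, 120 and 168 h. By this measure 60 h and 120 h overlapped. The log2 ratio of 120 h over 60 h was 0.32 by it, 0.88 by the sum and 0.99 through all introns. The 60 h value includes a broken transcript at 3.82 ± 0.769 FPKM, which ends 28 bases into the 133-base exon. Transcripts that hold the later 43-base exon had 3.01 FPKM at 60 h, 8.75 at 120 h and 10.3 at 168 h. Growth held a pair of short 2-exon transcripts with none of the 7 introns without alternatives. By the sum the level was 4.01-fold higher at 60 h than in growth and 7.89-fold higher at 168 h than in growth. Rbfox2, its broadly expressed relative, stayed within narrower bounds: 50.6 ± 4.23 FPKM in growth, 71.1 ± 6.68 at 60 h, 62.4 ± 5.12 at 120 h and 50.2 ± 4.44 at 168 h. The 60 h interval lay above those of growth and 168 h, and no Rbfox2 ratio reached 2-fold. The growth sum included unspliced pieces at 7.29 and 5.21 FPKM, and smaller ones entered the 60 h and 120 h sums. Introns without alternatives gave 38.1 ± 1.44, 68.9 ± 6.65, 61.1 ± 5.06 and 50.2 ± 4.44 FPKM in growth and at 60, 120 and 168 h. By this measure growth lay below all later libraries without overlap. The log2 ratio of 168 h over growth was 0.39 by it and -0.01 by the sum. Rbfox2 was first of the 10 members at 60, 120 and 168 h, but by the sum its interval at 168 h overlapped that of Qk.

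All 3 Mbnl genes were called lower at 168 h than in growth. With levels through all introns Mbnl1 and Mbnl2 lost this call, rescaling ended it for Mbnl2, and multi-exon transcripts alone ended it for Mbnl1. Mbnl2 measured 23.0 ± 2.41 FPKM in growth, 18.3 ± 2.57 at 60 h, 14.7 ± 1.63 at 120 h and 10.3 ± 1.95 at 168 h. Only growth and 168 h, which differed 2.23-fold, met the rule. Mbnl1 measured 49.1 ± 3.44 FPKM in growth, 24.0 ± 2.69 at 60 h, 26.2 ± 3.19 at 120 h and 15.3 ± 1.36 at 168 h. Growth was highest, 60 h and 120 h overlapped, and 168 h was lowest. The level at 60 h was 2.04-fold lower than in growth, which sat on the threshold: by introns without alternatives the log2 ratio was -0.98 and not called. Part of the sum came from short transcripts that hold none of the gene's introns without alternatives, which were chosen after their values were seen. These made 22.7 ± 2.51 FPKM in growth, where they are 1 unspliced piece of 505 bases, and those overlapping it made 11.1 ± 1.56, 6.11 ± 1.69 and 5.40 ± 1.07 FPKM at 60, 120 and 168 h. The introns without alternatives gave 26.4, 12.9, 14.6 and 9.86 FPKM, so both measures were lower at 168 h than in growth. Mbnl3, known to hold back differentiation in cultured myoblasts, was scarce: 6.61 ± 1.72 FPKM in growth from 97 fragments, not assembled at 60 h, 2.59 ± 1.34 at 120 h from 15 fragments and 0.793 ± 0.276 at 168 h from 33. Growth lay above the rest. By introns without alternatives Mbnl3 was listed at 0 at 60 h and 120 h, and the log2 ratio of 168 h over 120 h was 0.84, of opposite sign to that of the sum. Of the Mbnl total by introns without alternatives, 21.0 FPKM at 168 h and 52.0 in growth, Mbnl1 made 47.0% at 168 h and 50.7% in growth, and Mbnl2 49.2% at 168 h and 44.3% in growth.

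By the sum neither Celf gene met the rule in the comparisons made, which did not include 120 h against growth. For that pair the Celf2 sums were 32.2 ± 4.14 FPKM at 120 h and 14.2 ± 2.56 in growth, with intervals apart. Celf1, the broadly expressed member, measured 27.6 ± 4.39, 25.4 ± 3.48, 22.7 ± 4.17 and 20.6 ± 2.39 FPKM in growth and at 60, 120 and 168 h, with intervals that overlapped from each time to the next. The introns without alternatives gave 13.9 FPKM at 168 h, against 27.6 in growth, a log2 ratio of -0.94; the rest of the 168 h sum is 1 unspliced piece of 1509 bases at 6.77 ± 0.640 FPKM. With levels taken through all introns Celf1 was called lower at 168 h against 120 h, where 4.81% of genes were, and at 168 h against growth, where 18.5% were. Celf2, the brain and muscle member, measured 14.2 ± 2.56, 20.8 ± 3.66, 32.2 ± 4.14 and 17.2 ± 1.39 FPKM. The 120 h sum included 4 unspliced pieces, and the introns without alternatives gave 20.8 FPKM at 60 h and 20.7 at 120 h. Celf2 overlaps the annotated antisense gene Gm26565, with 6.96% of its 50-base words found in other genes. Qk measured 28.8 ± 2.04 FPKM in growth, 55.02 ± 2.81 at 60 h, 53.1 ± 3.09 at 120 h and 46.4 ± 2.16 at 168 h. Growth lay below the later libraries without overlap, at a log2 ratio of 0.91 for 60 h over growth, just under the threshold. Dividing all libraries by median-ratio factors, which moves the all-gene median of this comparison to 0.02 and so shifts every ratio by about the same amount, put Qk over the threshold and Mbnl1 under it. By introns without alternatives Qk was 31.8 FPKM at 168 h, close to the 28.8 of growth.

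Exon use in the transcripts of the members also differed between the libraries. For an internal exon, inclusion is the FPKM of transcripts that hold the exon between its own splice sites as a share of that plus the FPKM of transcripts with an intron across it. A switch is a change of at least 30 points with intervals apart and at least 5 FPKM at the exon in both libraries. Of 99 internal exons assembled in the members, 20 were both kept and skipped. At 60 h against growth, 2 of 14 comparable exons switched, both in Rbfox2, where 14.1% of 3068 exons of all genes did. At 168 h against growth, 7 of 13 switched, in Celf1, Celf2, Rbfox2 and Ptbp1, against 18.9% of 2949 exons. The counts were 5 of 16 for 120 h against 60 h, against 11.9% of 3353 exons, and 5 of 17 for 168 h against 120 h, against 13.5% of 3413. Counting transcripts that use at least 1 splice site of an exon, the switches of Mbnl2, of the 152-base exon of Celf1 and of its 105-base exon at 168 h against 120 h no longer met the rule. Switches of the 105-base exon of Celf1 at 60 h against growth, of the 223-base exon of Mbnl1 at 120 h against 60 h and of a 51-base exon of Rbfox2 at 168 h against 120 h were added. These exons are not independent, since several sit on the same assembled transcripts.

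The late small exons of Rbfox2 are shown first because they switched already at 60 h. Rbfox2 has a pair of neighbouring small exons, a 40-base exon known from non-muscle cells and a 43-base exon known from muscle, which lie near its 3′ coding end. The sequences are the annotated ones (GENCODE M21, GRCm38), at chr15:77094451-77094490 and chr15:77091812-77091854 on the minus strand, all bases coding. Rbfox1 has a 43-base exon at the matching place, at chr16:7369801-7369843 on the plus strand. Capitals mark the bases at which the 43-base exons of Rbfox2 and Rbfox1 are not the same, compared position by position:
Rbfox2 40-base exon: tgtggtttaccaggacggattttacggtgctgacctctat
Rbfox2 43-base exon: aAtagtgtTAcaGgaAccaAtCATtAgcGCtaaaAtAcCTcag
Rbfox1 43-base exon: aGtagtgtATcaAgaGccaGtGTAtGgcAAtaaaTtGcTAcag
The paralogous 43-base exons were identical at 27 positions and different at 16. Each of the 3 exons leaves a remainder of 1 base when its length is divided by 3, so the 40-base and 43-base exons keep the same downstream frame in place of each other, and skipping both changes it.

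In growth every assembled transcript across this region of Rbfox2 held the 40-base exon, at 38.1 ± 1.44 FPKM, and no transcript with the 43-base exon was assembled there. The 40-base exon was at 16.7 ± 2.14, 15.8 ± 3.02 and 15.3 ± 3.28 FPKM at 60, 120 and 168 h, and the 43-base exon at 25.8 ± 4.21, 35.8 ± 2.42 and 25.4 ± 1.39 FPKM. Thus the 43-base exon exceeded the 40-base exon in every differentiated library with intervals apart. A path that skips both, through an intron of 11784 bases, was absent from growth and had 26.4 ± 4.68, 9.46 ± 3.26 and 9.55 ± 2.65 FPKM at the later times. In shares, the 40-base exon had 24.2% ± 3.23 at 60 h, against 100% in growth, and the 43-base exon 37.5% ± 4.73 at 60 h, against 0% in growth. At 168 h the shares were 30.5% ± 4.89 for the 40-base exon and 50.5% ± 4.45 for the 43-base exon. A share of 0% or 100% means that no transcript with the other choice was assembled, and it has no interval of its own. In Rbfox1, chosen here after its values were seen, every assembled transcript across that place held the 43-base exon, and the annotated 40-base exon of Rbfox1 was in no library.

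**Figure D3:**
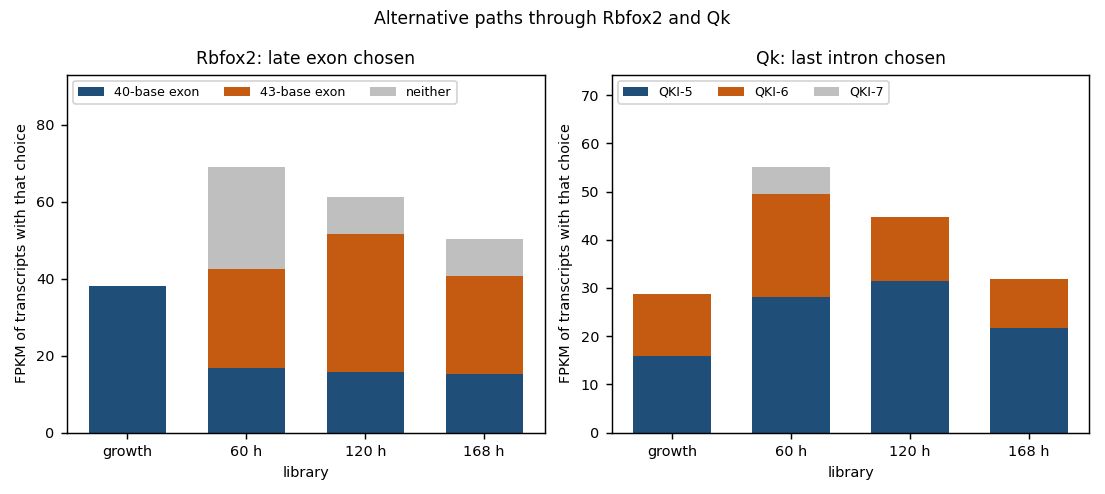
FPKM of transcripts by path (y axis) in the growth, 60 h, 120 h and 168 h libraries (x axis), stacked. On the left the late exon of Rbfox2, with 25.4 FPKM of the 43-base exon at 168 h and 38.1 FPKM of the 40-base exon alone in growth; on the right the last intron of Qk, with QKI-5 the larger part at each time.

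A second Rbfox2 exon, of 93 bases, encodes part of the RNA-recognition motif, and its skipping is known to yield a protein that does not bind RNA well. It lies at chr15:77105577-77105669 (GRCm38, minus strand), its length is a multiple of 3, and it is shown because its skipping form was missing from growth:
Rbfox2 93-base exon: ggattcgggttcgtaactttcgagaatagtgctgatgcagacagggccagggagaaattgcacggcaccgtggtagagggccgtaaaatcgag
Its inclusion was 100% in growth, 72.8% ± 3.27 at 60 h, 74.1% ± 4.05 at 120 h and 50.5% ± 4.45 at 168 h. Growth stood apart from the later times, 60 h and 120 h overlapped, and 168 h was lowest. The form without the exon had 24.9 ± 4.22 FPKM at 168 h, 15.8 ± 3.02 at 120 h and 15.8 ± 1.08 at 60 h. In the assembly the 43-base exon stood only in transcripts that kept the 93-base exon: those with both had 25.8, 35.8 and 25.4 FPKM at 60, 120 and 168 h, and no transcript had the 43-base exon without the 93-base exon. Fragments averaged 200 bases, per the labels' protocols, so pairs of distant exons on 1 molecule were joined by the assembly and their joint use was not tested. The starts of Rbfox2 differed too. The start joined through an intron of 20588 bases had 50.5% ± 4.45 at 168 h, against 89.6% ± 1.94 in growth, and a start joined through an unannotated length of 29715 bases had 32.0% ± 5.50 at 168 h and 0 FPKM in growth.

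Exon use in Ptbp1 transcripts differed between libraries, as did the level of the gene. The 78-base exon in the linker between RNA-recognition motifs, which is known to change the repressor's activity, and the 34-base exon whose skipping is known to send the transcript to decay, are at chr10:79860117-79860194 and chr10:79862014-79862047 (GRCm38, plus strand):
Ptbp1 78-base exon: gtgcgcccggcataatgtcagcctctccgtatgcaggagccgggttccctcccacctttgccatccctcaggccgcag
Ptbp1 34-base exon: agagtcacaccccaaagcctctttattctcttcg
The first length is a multiple of 3, and the second leaves a remainder of 1. Inclusion of the 78-base exon was 38.0% ± 1.98 in growth, 64.3% ± 8.11 at 60 h, 66.4% ± 8.63 at 120 h and 70.7% ± 6.59 at 168 h. Growth lay below all 3 later libraries, which overlapped one another. The form that skips it fell to 7.63 ± 1.62 FPKM at 168 h, against 84.5 ± 3.45 in growth, and the form that holds it to 18.4 ± 4.34 FPKM at 168 h, against 51.7 ± 3.81 in growth. The 34-base exon, which was chosen after its values were seen, had 66.2% ± 1.84 in growth, 78.5% ± 7.06 at 60 h, 77.5% ± 10.5 at 120 h and 58.5% ± 8.68 at 168 h. It did not switch in any comparison, and 168 h overlapped growth.

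**Figure D4:**
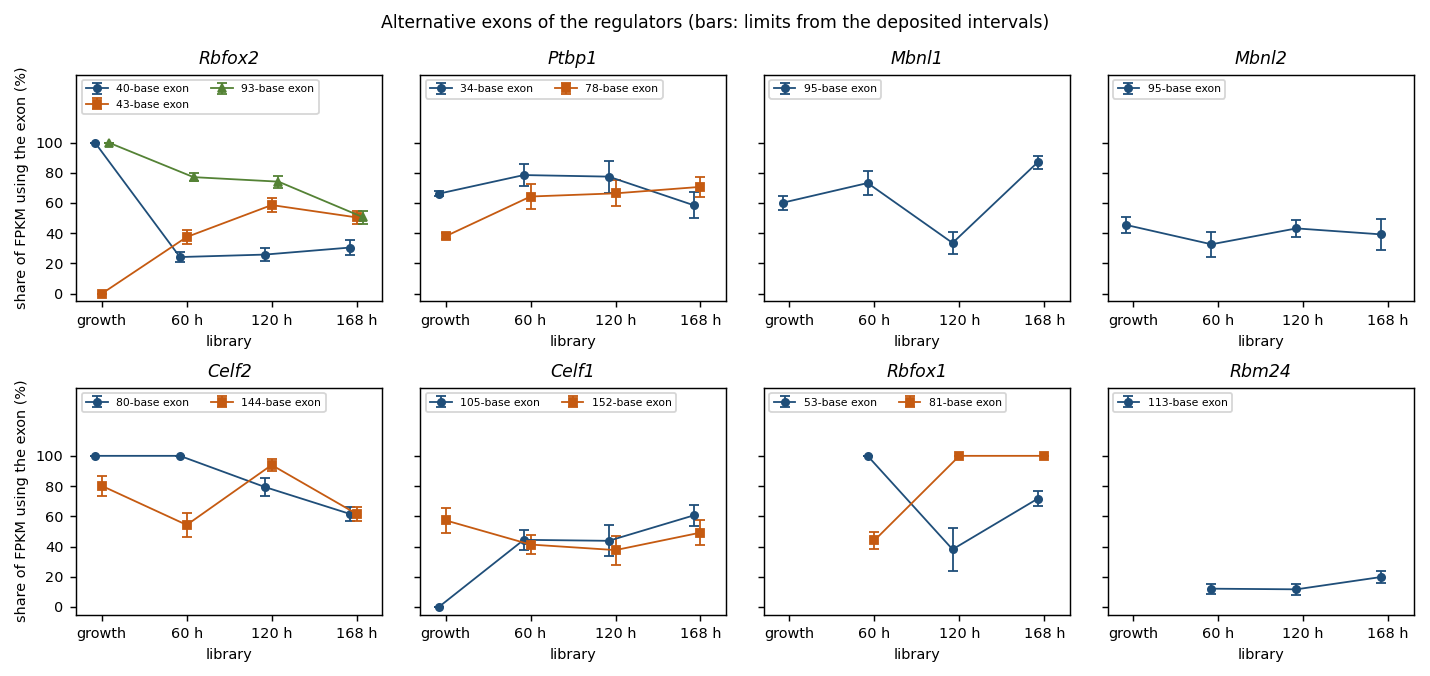
Share of FPKM that uses an alternative exon (y axis, %) in the growth, 60 h, 120 h and 168 h libraries (x axis) for 8 members, counting transcripts that use at least 1 splice site of the exon; bars are limits from the deposited intervals. In Rbfox2 the 40-base exon is at 24.2% at 60 h and 100% in growth, and the 95-base exon of Mbnl2 stays between 32.7% and 45.4%.

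The 3 Mbnl genes share a 95-base exon. It is shown because the paralogues can be read against each other; capitals mark positions at which the 3 are not all the same. The exons lie at chr3:60622146-60622240 (plus strand), chr14:120404638-120404732 (plus strand) and chrX:51123817-51123911 (minus strand) in the GENCODE M21 annotation of GRCm38, all bases coding:
Mbnl1 95-base exon: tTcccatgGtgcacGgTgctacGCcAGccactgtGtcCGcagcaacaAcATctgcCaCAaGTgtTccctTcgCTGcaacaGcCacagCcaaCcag
Mbnl2 95-base exon: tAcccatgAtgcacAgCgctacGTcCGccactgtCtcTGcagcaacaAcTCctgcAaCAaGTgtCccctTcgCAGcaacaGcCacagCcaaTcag
Mbnl3 95-base exon: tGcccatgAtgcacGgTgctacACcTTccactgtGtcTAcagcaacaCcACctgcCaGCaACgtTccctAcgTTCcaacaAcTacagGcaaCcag
Mbnl1 and Mbnl2 were identical at 81 positions, Mbnl1 and Mbnl3 at 76, and Mbnl2 and Mbnl3 at 70. In Mbnl3 no assembled transcript skipped the exon. It was assembled only in growth, at 2.62 ± 0.699 FPKM, and at 168 h, at 0.793 ± 0.276 FPKM. In Mbnl1 inclusion was 60.2% ± 4.65 in growth, 73.2% ± 7.73 at 60 h, 33.6% ± 7.41 at 120 h and 86.8% ± 4.47 at 168 h. The 120 h library was low and 168 h high, so the exon switched at 120 h against 60 h and back at 168 h against 120 h. In the 120 h library Mbnl1 also had 3 unspliced pieces and a last exon of 326 bases, against 1655 bases in growth and at 60 h and 1682 bases at 168 h. In Mbnl2 inclusion was 45.4% ± 5.31 in growth, 32.7% ± 8.29 at 60 h, 0% at 120 h and 39.2% ± 10.5 at 168 h. The 0% comes from a transcript that ends inside the exon: counting transcripts that use at least 1 of its splice sites, Mbnl2 had 43.2% ± 5.86 at 120 h and no switch. The 36-base exon of Mbnl1, chosen after its values were seen, had 12.7% ± 4.29 inclusion in growth and 14.8% ± 7.22 at 60 h, and was not assembled at 120 or 168 h. The annotated 54-base exon, also chosen after its values were seen and known in MBNL1 for nuclear localisation, was in no library in Mbnl1 or Mbnl2. Of the introns that lead into the first shared exon of Mbnl1, that of 66615 bases, also chosen after its values were seen, leaves a noncoding 223-base exon and had 32.9% ± 4.71 in growth and was not assembled at 60, 120 or 168 h. The 223-base exon with both its splice sites was likewise assembled in growth alone. By at least 1 splice site it had 82.6% ± 5.28 in growth, 100% at 60 h, 55.5% ± 9.79 at 120 h and 80.6% ± 6.74 at 168 h. That count gave a switch at 120 h against 60 h. Its later values come from short 2-exon transcripts that use the exon's first splice site. They end there in exons of 749 bases at 60 h, 669 at 120 h and 680 at 168 h. The intron of 65789 bases had 86.8% ± 4.47 at 168 h, against 53.5% ± 4.57 in growth, and at 168 h it lies on the same transcript as the 95-base exon.

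Celf1 had a second 3′ end after growth. From a shared donor, growth used only the intron of 3163 bases, at 27.6 ± 4.39 FPKM. An intron of 88 bases from that donor leads to an alternative end and had 11.3 ± 1.93 FPKM at 60 h, 8.88 ± 3.42 at 120 h and 8.40 ± 2.19 at 168 h, which made 44.4% ± 6.58, 43.8% ± 10.4 and 60.6% ± 6.93 of the donor. No differentiated library overlapped growth. At 60 and 120 h transcripts ended there, and at 168 h they were joined onward by an intron of 2970 bases whose length is not annotated, so a 105-base exon was counted as kept there alone. A 152-base exon near the start, of which 71 bases are annotated as coding, had 57.3% ± 8.33 inclusion in growth and 41.3% ± 6.54 at 60 h. Its 0% at 120 and 168 h comes from transcripts that begin inside it. By at least 1 splice site it had 37.6% ± 9.59 at 120 h and 49.2% ± 8.27 at 168 h, and no switch.

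Celf2 skipped a pair of fully coding exons in variable amounts. The 144-base exon had 80.2% ± 6.80 inclusion in growth, 54.3% ± 8.16 at 60 h, 93.9% ± 3.71 at 120 h and 61.6% ± 4.51 at 168 h. The libraries alternated, with 60 h and 168 h low and overlapping, and 120 h high. The 80-base exon was kept in all growth and 60 h transcripts and had 79.4% ± 5.89 at 120 h and 61.6% ± 4.51 at 168 h. The intron that skips it, of 11505 bases, is not an annotated length. At 168 h the shares of both exons are the same because 1 transcript with a level of 5.54 ± 0.799 FPKM skips both. Of its starts, the one joined by an intron of 150742 bases fell to 24.4% ± 12.5 at 60 h, against 75.99% ± 9.78 in growth, and was 67.4% ± 8.24 at 120 h. The start joined by 154780 bases, not an annotated length, had 38.4% ± 4.51 at 168 h and 0 FPKM in growth.

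Rbfox1 could be followed from 60 h. Its 81-base exon had 44.1% ± 5.44 inclusion at 60 h and 100% at 120 and 168 h, and the skipping intron at 60 h, of 46470 bases, is not an annotated length and is followed by only 28 assembled bases. A 54-base exon, chosen after its values were seen, had 100%, 79.7% ± 12.1 and 71.6% ± 5.06 at 60, 120 and 168 h. A 53-base exon whose length is not annotated in Rbfox1 had 100% at 60 h, on 3.01 ± 0.274 FPKM, 38.1% ± 14.1 at 120 h and 71.6% ± 5.06 at 168 h. The change of 33.5 points at 168 h against 120 h met the rule, and at 168 h the 54-base and 53-base exons lie on the same transcript. In Rbm24 a 113-base exon, of which no base is annotated as coding, had 0% at 60 h, 11.7% ± 3.81 at 120 h and 19.9% ± 3.89 at 168 h. By at least 1 splice site it had 12.1% ± 3.29 at 60 h, through a transcript that begins inside it.

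Qk has alternative last exons that give the protein its tail: QKI-5 is nuclear, and QKI-6 and QKI-7 lie partly or wholly in the cytoplasm. They were chosen after their values were seen, since none moved by 30 points. The path to QKI-5, through an intron of 2726 bases, had 15.9 ± 0.861, 28.1 ± 0.863, 31.5 ± 2.01 and 21.8 ± 1.18 FPKM in growth and at 60, 120 and 168 h. The path to QKI-6, through 1965 bases, had 12.9 ± 1.85, 21.3 ± 2.13, 13.3 ± 2.16 and 9.99 ± 1.31 FPKM. QKI-7, through 685 bases, was assembled only at 60 h, at 5.55 ± 1.61 FPKM. The QKI-5 share of that donor was 68.6% ± 3.06 at 168 h, against 55.1% ± 3.79 in growth, with intervals apart. An acceptor choice that differs by 24 bases, also chosen after its values were seen, with introns of 1280 (not an annotated length) and 1256 bases, differed between libraries: the 1280-base intron had 44.9% ± 3.79 in growth, 48.9% ± 2.60 at 60 h, 29.7% ± 3.65 at 120 h and 68.6% ± 3.06 at 168 h. In each library 1 of these introns had exactly the FPKM of a last-exon path, so both choices were read from the same transcripts.

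Of 40 other tissue-type splicing regulators, 26 could be named in at least 1 library. At 60 h against growth, 25 were compared, with 1 called higher (11% of all genes) and 3 lower (15.5%) and a median log2 ratio of -0.61, beside -0.19 for all genes. At 168 h against growth, 26 were compared, with 2 higher (15.6% of all genes) and 12 lower (18.6%) and a median of -0.73, beside -0.11. Rbm38, an RNA-binding target of p53 related to RBM24 in its RNA-recognition motif, had the largest change at 60 h: 58.6 ± 6.14 FPKM at 60 h, against 18.8 ± 1.34 in growth, and it reached 103 ± 12.7 at 168 h. Tia1 had 4.63 ± 0.706 FPKM at 60 h, against 13.2 ± 2.11 in growth, and Tial1 13.2 ± 0.642 at 60 h, against 33.8 ± 3.52 in growth; both encode U-rich binding proteins and both were called lower. Msi1, a neural progenitor factor, had 1.22 ± 1.03 FPKM at 60 h, against 3.98 ± 2.33 in growth, and was not called. The neural and epithelial factors Rbfox3, Nova1, Nova2, Elavl2, Elavl3, Elavl4, Srrm4, Esrp1 and Esrp2 were among the 14 named in no library; so were Hnrnpf and Raver1, which many cell types use, so a gene that was not named is not shown to be silent. Of 8 neuron markers 5 were assembled at the first 3 times and 4 at 168 h, with Rbfox3, Snap25 and Elavl4 at 0 throughout, and the list summed to 226, 103, 69.8 and 22.9 FPKM in time order. Their part in the values of Rbfox1 was not tested.

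Of 9838 coding genes whose highest library reached 5 FPKM, the 3 profiles nearest to each member called at 60 h were found by the Euclidean distance between mean-centred log2(FPKM + 1) values over the 4 libraries. For Ptbp1 these were Sigirr at 0.0156, Mrps6 at 0.0495 and Tex30 at 0.0691. For Rbm24 they were R3hdml at 0.155, Alpk3, a kinase-domain protein of heart and skeletal muscle, at 0.318 and Fndc5, the precursor of irisin, at 0.320. For Rbfox1 they were Ctif at 0.146, Car11 at 0.150 and Usp2 at 0.155. For Mbnl1 they were Psenen at 0.0562, S100a6 at 0.0671 and Cldn12 at 0.0728, and for Mbnl3 Tmed1 at 0.279, Sytl5 at 0.400 and Dynll1 at 0.408. With 4 libraries many genes share a profile, and the distances describe these libraries alone.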

How the data were processed

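PolyA RNA of 4 C2C12 cultures, 1 library per time, was sequenced as paired reads of 76 bases, per the labels. The authors deposited assembled transcripts with a level labelled RPKM and confidence limits, both read here as FPKM. The submitters' processing notes name TopHat 1.0.13 and Cufflinks 0.8.0, without stating what each did. A genome build was not given in the sources used here. Coordinates on GRCm38 refer to the annotation only. Genes were named by matching runs of exon and intron lengths to GENCODE M21: 121687 of 137519 introns by runs and 6169 by their own length, while shifted lengths matched 1.24%. FPKM, not counts, was analysed, so no count test was run. Fragments were inferred from FPKM, length and limits, and 93.6 to 94.5% of values under 50 fragments at loci with 1 transcript were whole within 0.01. Limits cover counting error only. A pseudocount of 1 FPKM was used in log2 ratios, which understates changes of low genes. The level rule was tested on simulated counts with counting error alone, and the exon rules on constructed transcripts. The simulated counts include neither variation between cultures nor broken transcript pieces. Python 3.11.15 and matplotlib 3.10.9 were used.

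Genes named are the 10 members, their exons that met the switch rule, each member's exon with the widest range of inclusion, first or last splice-site choices that changed by at least 30 points, the 4 other regulators with the largest ratio at 60 h against growth and the 3 nearest profiles. Further features are marked in the text as chosen after their values were seen. The members and lists were chosen with earlier results of these data known. Alternatives covered the pseudocount, the minimum level, rescaling, the level measure, the fold and the exon thresholds. Introns without alternatives and shares counting at least 1 splice site were added after seeing the data.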

Additional observations from a re-analysis of the deposited data

How the results depend on the processing

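A 4-fold rule left 1 member called higher and 1 lower at 60 h against growth, 2 lower at 168 h against growth, 0 higher at 120 h against 60 h and 0 lower at 168 h against 120 h. The single call at 120 h against 60 h, Mbnl3, went to 0 with a minimum of 5 FPKM, with levels through the introns and with introns without alternatives. The single lower call at 168 h against 120 h went to 0 with a minimum of 5 FPKM, median-ratio rescaling, the union of exons and introns without alternatives; under the last, the Mbnl3 log2 ratio reversed to 0.84. Through the introns Mbnl3 also lost this call, at a log2 ratio of -0.14, and Celf1 was the 1 member called. Switched exons with a change of 20 points numbered 5 at 60 h against growth and 8 at 120 h against 60 h. With a minimum of 10 FPKM they numbered 3 at 120 h against 60 h and 2 at 168 h against 120 h, and with introns named by runs alone also 3 and 2. The causes were not tested. Counting at least 1 splice site gave 3 of 15 exons at 60 h (13.8% of all genes' exons) and 6 of 14 at 168 h (18.4%), each set against growth. It gave 4 of 18 for the step to 120 h (11.9%) and 4 of 19 for the step to 168 h (13%). Of 359 alternative values of members' log2 ratios, 307 kept their sign and stayed called or uncalled, though their size could change. In 22 a call was lost, in 4 gained, in 25 the sign of an uncalled ratio turned, and 1 reversed. No paired analysis was possible because each time has 1 library. Mbnl3 rested on at most 97 fragments, and in growth Rbfox1 rested on 15 and Rbm24 on 17.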
